A study of Rattus norvegicus with 10 samples.

Results

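The enzymes that add methyl groups to histones and remove them were followed in the hippocampus of rats after status epilepticus, a prolonged seizure. Of the features in the deposited count matrix, those whose RefSeq record carries a symbol starting with Kdm, Kmt, Setd, Suv39, Ehmt, Nsd with a number, Smyd, Prdm or Prmt were taken, with Dot1l, Ezh1, Ezh2, Eed, Suz12, Ash1l, Ash2l and Carm1. For each symbol the row with the most counts was kept when its counts summed to 46 or more over all rats. This gave 49 genes among 22447 tested features. All 49 matched symbols passed the count limit, the lowest being Prdm1 with 88 counts and Kdm4d with 89 counts in all rats together, and no matched symbol lay below it. The reference table of symbols held 99 that match these names, and those without a matched row, Suz12 and Kdm6a among them, were not analysed here. Kmt2a, Setd2, Nsd1 and Ehmt1 were likewise not among the 49. The counts by class below therefore cover only part of each family.

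RNA came from 10 male Sprague-Dawley rats, an outbred strain, each with a wire electrode in the left lateral amygdala. In 5 rats trains of 400 µA pulses at 60 Hz were given for 30 min to evoke status epilepticus, which was later stopped with diazepam, and the 5 sham rats were age matched and carried electrodes without current. Age in weeks is not stated in the labels. Left hippocampal tissue with the CA3 field and dentate gyrus was taken 3 months after status epilepticus, and polyadenylated RNA was sequenced. Rats 1 to 5 are sham and rats 6 to 10 are stimulated. The tissue is a homogenate, so fewer cells of a type and less RNA per cell cannot be told apart. Each library held between 13552309 and 24086059 counts summed over all records, and the 49 genes together took between 0.197% and 0.228% of them. Markers of CA3 (Grik4, 138 to 167 CPM) and of the dentate gyrus (C1ql2, 44.8 to 207 CPM) were counted in all rats, as was the CA1 marker Fibcd1 (28.4 to 171 CPM). CPM are counts scaled to a common library size.

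Methyl groups on histone lysines and arginines do not alter the charge of the histone and act by recruiting or repelling reader proteins. Methylation of H3K4 marks active promoters and enhancers, H3K36 and H3K79 methylation accompany transcribed genes, and methylation of H3K9, H3K27 and H4K20 is linked to silent or compacted chromatin. Most lysine methyltransferases carry a SET domain, Dot1l is the exception without one, and demethylases use either a flavin-dependent amine oxidase domain (Kdm1a, Kdm1b) or a JmjC domain that consumes oxygen and alpha-ketoglutarate. Several family members, such as Setd6 and Smyd2, also methylate proteins other than histones.

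The comparison asks whether expression differs between stimulated and sham rats. The study named Dot1l, Kdm6b and Prdm2 from samples of this set, so their values here are not independent evidence of a direction. In its own edgeR test Dot1l had an adjusted p-value under 0.05, unlike here. The study named Kdm6b and Prdm2 only at a looser limit, an unadjusted p-value under 0.01. Its methods count 1 stimulated rat fewer than were used here, and which rat it left out is not stated. In the comparison of 5 stimulated with 5 sham rats, 0 of the 49 enzymes passed an adjusted p-value of 0.05 when tested by quasi-likelihood in edgeR (beside 0.0% of all features). The lowest adjusted p-value was 0.38, for Kdm3a. Among all features the count was likewise 0, and 9.86% of them had an unadjusted p-value under 0.05. At an unadjusted p-value under 0.05, 4 enzymes were higher in stimulated rats (8.16%, beside 6.7% of all features), namely Kdm3a, Dot1l, Kdm6b and Prmt8. In the other direction 1 enzyme, Smyd2, was lower (2.04%, beside 3.16% of all features). Both shares were near those of all features. At an unadjusted p-value under 0.01 there were 2 of the 49, Kdm3a and Dot1l (beside 2.41% of all features). Adjusted p-values from DESeq2, limma-voom and edgeR's exact and likelihood ratio tests were likewise under 0.05 for 0 of the 49 enzymes, and at the unadjusted limit these tools counted 4, 3, 5 and 5 enzymes higher (beside 6.76%, 4.89%, 6.71% and 6.87% of all features) and 1, 3, 1 and 1 lower (beside 3.62%, 4.17%, 3.0% and 3.11%). The fifth enzyme of the exact and likelihood ratio tests was Prdm1.

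The log2 fold changes, stimulated over sham, had a median of -0.04 over the 49 enzymes and 0.01 over all features. They ran from -0.42 for Kdm4d to 1.44 for Kdm6b, with 22 above and 27 below 0. For 44 of the 49 enzymes the log2 fold change was smaller than 0.5 in either direction. The 95% interval lay wholly between -0.5 and 0.5 for 32 enzymes and between -1 and 1 for 42. For 0 of the 49 enzymes did the values of stimulated and sham rats fall apart without overlap, beside 1.29% of all features.

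**Figure D1:**
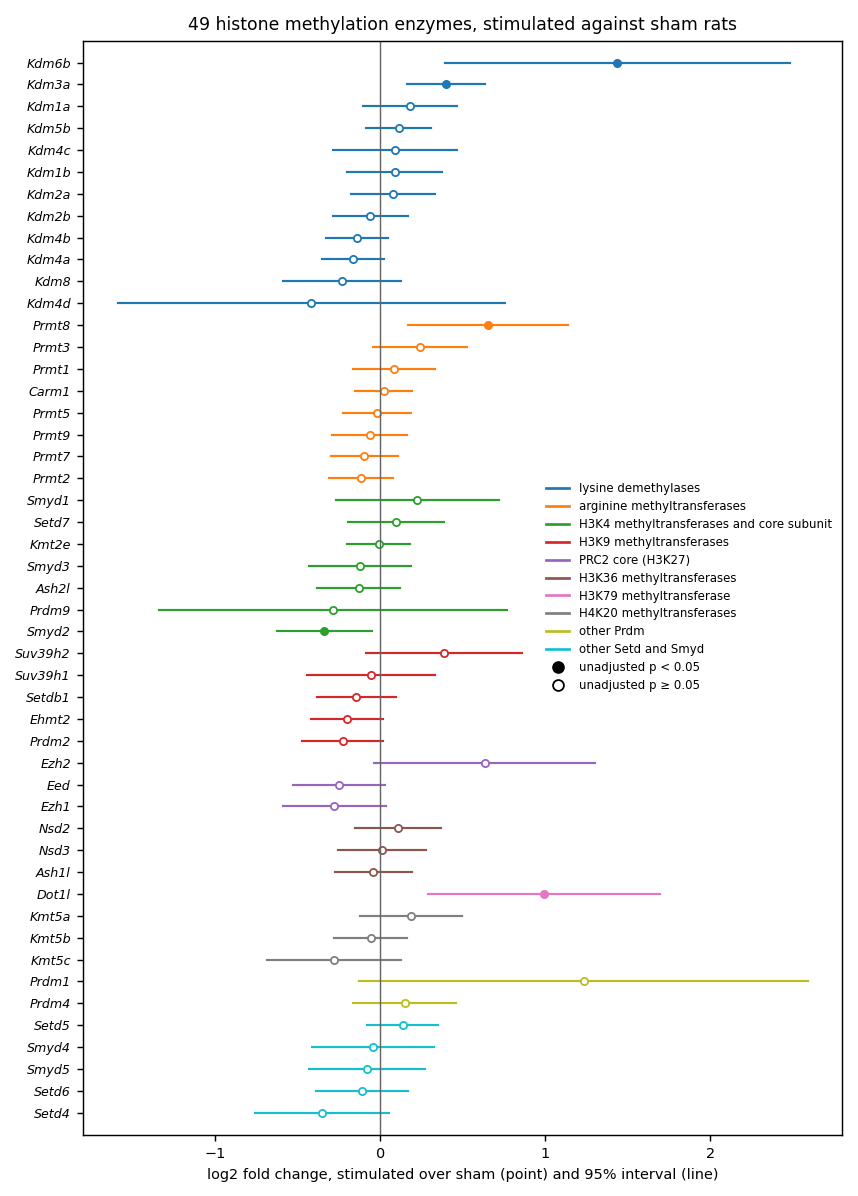
Log2 fold change of each of the 49 enzymes, stimulated over sham (x axis), with its 95% interval as a line, ordered and coloured by role, and filled points at an unadjusted p-value under 0.05. The filled points are Kdm6b, Kdm3a, Prmt8 and Dot1l to the right of 0 and Smyd2 to the left.

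Promoters of the enzymes with the lowest p-values among those held in the RefSeq table, and of the genes the study named, are shown because the study is one of DNA methylation, which falls on CpG dinucleotides. The windows run from 250 bases before to 50 bases after the annotated start, 5′ to 3′ in the direction of transcription, in the GRCr8 build of the RefSeq table, with each CpG in capitals. Kdm6b lies at chr10:54640965-54641264 on the minus strand, Dot1l at chr7:9607046-9607345 on the minus strand, Prdm2 at chr5:160815091-160815390 on the minus strand and Kdm3a at chr4:105233321-105233620 on the minus strand.
Kdm6b: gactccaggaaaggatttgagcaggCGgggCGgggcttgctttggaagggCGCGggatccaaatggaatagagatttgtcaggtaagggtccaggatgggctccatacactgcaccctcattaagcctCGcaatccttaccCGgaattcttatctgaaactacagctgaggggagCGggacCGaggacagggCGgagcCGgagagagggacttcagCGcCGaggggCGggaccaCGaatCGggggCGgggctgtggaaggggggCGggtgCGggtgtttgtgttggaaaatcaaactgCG
Dot1l: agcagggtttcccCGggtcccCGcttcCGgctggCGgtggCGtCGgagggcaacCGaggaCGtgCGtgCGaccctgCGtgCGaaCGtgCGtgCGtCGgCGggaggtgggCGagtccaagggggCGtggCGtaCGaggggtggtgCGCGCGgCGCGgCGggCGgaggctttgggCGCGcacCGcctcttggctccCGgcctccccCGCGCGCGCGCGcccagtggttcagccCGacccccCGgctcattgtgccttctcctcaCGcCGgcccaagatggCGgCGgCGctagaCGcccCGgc
Prdm2: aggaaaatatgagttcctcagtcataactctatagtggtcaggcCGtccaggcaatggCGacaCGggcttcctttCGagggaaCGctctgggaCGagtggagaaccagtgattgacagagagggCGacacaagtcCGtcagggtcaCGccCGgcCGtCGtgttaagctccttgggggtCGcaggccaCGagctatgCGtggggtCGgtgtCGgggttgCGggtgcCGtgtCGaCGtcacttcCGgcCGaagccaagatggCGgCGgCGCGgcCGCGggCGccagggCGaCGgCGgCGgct
Kdm3a: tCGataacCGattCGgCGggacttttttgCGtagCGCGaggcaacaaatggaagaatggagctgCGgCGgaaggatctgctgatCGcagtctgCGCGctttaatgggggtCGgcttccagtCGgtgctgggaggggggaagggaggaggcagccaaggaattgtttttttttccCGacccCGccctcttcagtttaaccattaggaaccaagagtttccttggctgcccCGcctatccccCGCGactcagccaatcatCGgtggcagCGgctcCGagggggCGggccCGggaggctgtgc
The Dot1l window holds 47 CpG, the Prdm2 window 34, the Kdm3a window 24 and the Kdm6b window 19.

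A promoter was found for 40 of the 49 enzymes. Of these, 38 (95%) had a GC content above 50% and a ratio of observed to expected CpG above 0.6, the usual description of a CpG island, beside 63.7% of the 10033 promoters of tested genes with a symbol. The 2 exceptions were Smyd1, a muscle methyltransferase with 3 CpG in its window, and Prdm4, with 5. The median enzyme promoter held 23 CpG and the median tested promoter 20. Letters that activity-regulated factors bind were searched on both strands, and separately the GC box GGGCGG and the letters CACGTG. The full cyclic AMP response element TGACGTCA was in 2 windows (5.0%, Prmt9 and Suv39h2, beside 3.06% of tested promoters), and its shorter form TGACG, which the full element contains, in 14 (35.0%, beside 30.5%). The AP-1 letters TGANTCA were in 4 windows (10.0%, beside 5.26%) and the CArG box in 0 of 40 (beside 1.16%). Of the letters searched separately, the GC box was in 26 windows (65.0%, beside 59.5%) and CACGTG in 4 (10.0%, beside 9.14%). In the windows printed above, TGACG occurred in Prdm2 only, 2 times, and the GC box in Kdm6b (5 times), Kdm3a (2 times) and Dot1l (1 time), with no TGACGTCA, TGANTCA or CArG box in any of them.

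The lysine demethylases were the largest class, with 12 members, 7 of them above and 5 below 0, and a median log2 fold change of 0.08. At the unadjusted limit 2 of the 12 were higher, beside 6.7% of all features. Kdm6b (NM_001108829), a JmjC enzyme that removes methyl groups from H3K27 and is induced by neuronal activity, had 19.0, 17.0, 19.6, 19.1 and 15.1 CPM in sham rats 1 to 5. In stimulated rats 6 to 10 it had 19.0, 35.6, 19.0, 144 and 25.1 CPM. Rats 7, 9 and 10 were above all sham rats and rats 6 and 8 lay among them. Its log2 fold change was 1.44 (SE 0.486, 95% interval 0.39 to 2.48, adjusted p = 0.409), and 0.45 without rat 9. With limma-voom it was 0.94 and no longer under the unadjusted limit.

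Kdm3a (NM_175764), a JmjC enzyme for H3K9 that responds to low oxygen, had 25.4, 22.7, 27, 26.7 and 23.7 CPM in sham rats. It had 30.8, 37.9, 33.3, 36.5 and 26.8 CPM in stimulated rats. Here 4 of 5 stimulated rats, including 6 and 8, were above all sham rats, and rat 10 lay among them. Group means were 25.1 ± 1.85 CPM (sham) and 33.1 ± 4.47 CPM (stimulated; SD, n = 5 per group), a log2 fold change of 0.40 (SE 0.11, 95% interval 0.16 to 0.63, adjusted p = 0.38). No single rat decided this value, which ran from 0.34 to 0.46 when each rat was left out in turn, and each of these 10 fits kept it under the unadjusted limit of 0.05.

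None of the other 10 demethylases was past the unadjusted limit. Kdm4a (H3K9 and H3K36) lay below the sham range in 4 of 5 stimulated rats, in rats 8 and 10 by very little. Its log2 fold change was -0.17 (SE 0.0868, adjusted p = 0.551), while Kdm4b and Kdm4c, of the same subfamily, had -0.14 and 0.09. Kdm1a, the flavin-dependent enzyme for H3K4, stood at 79.3 CPM in rat 7 and at 44.8 to 55.3 CPM in the other stimulated rats, where sham rats had 46.4 to 55.1 CPM. Kdm5b, a JmjC enzyme for H3K4, had a log2 fold change of 0.11 with a 95% interval of -0.08 to 0.31. Kdm2a, for H3K36, averaged 80.8 ± 3.49 CPM (sham) and 85.2 ± 16.5 CPM (stimulated; SD, n = 5 per group), and both its highest value (108 CPM, rat 9) and its lowest (65.5 CPM, rat 10) were in stimulated rats. Kdm4d was counted at 20 or fewer reads in each rat, and its 95% interval ran from -1.59 to 0.75.

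**Figure D2:**
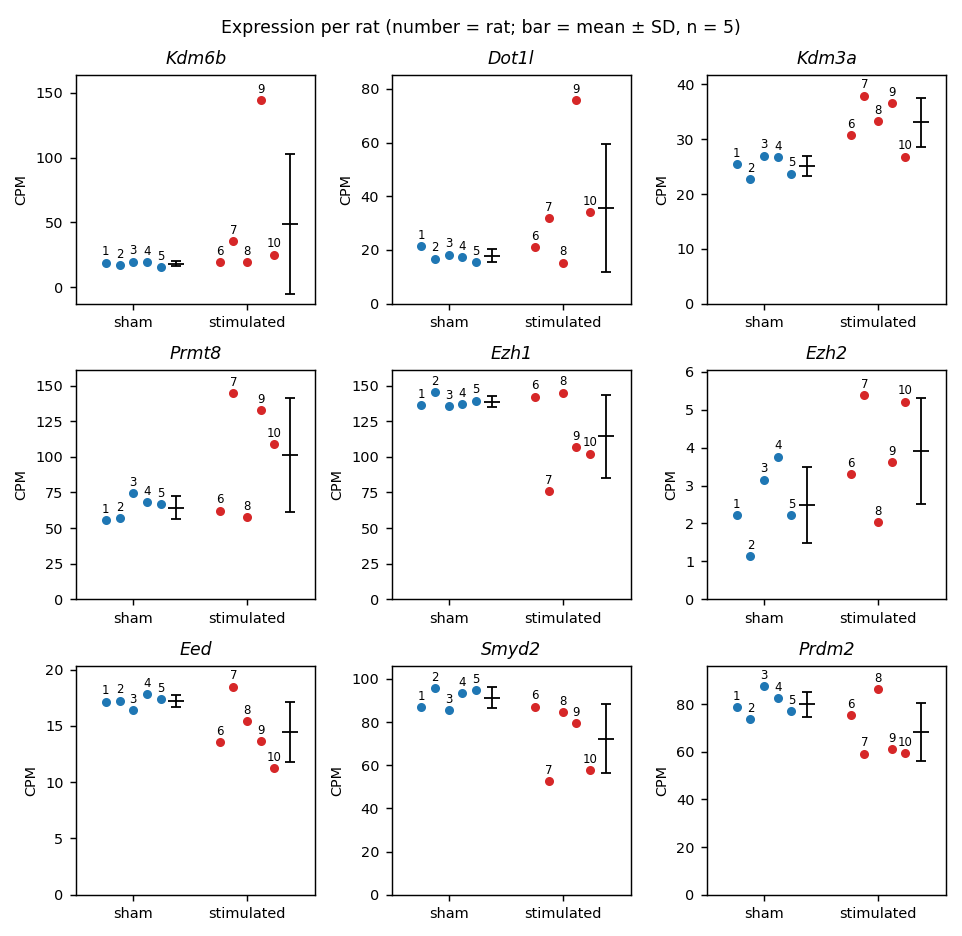
Expression in CPM (y axis, from 0 or just below) of 9 enzymes in each rat, numbered, for sham (blue) and stimulated (red) rats, with the mean and SD of each group (n = 5). In Kdm6b, Dot1l and Prmt8 rats 7, 9 and 10 lie above all sham rats, and in Ezh1 and Prdm2 the same rats lie below them.

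Dot1l (NM_001108733), the sole methyltransferase for H3K79, had 21.6, 16.8, 18.3, 17.5 and 15.4 CPM in sham rats. In stimulated rats it had 21.0, 31.9, 15.3, 75.8 and 34.2 CPM. Again rats 7, 9 and 10 were above all sham rats, rat 6 was among them, and rat 8 was just below the lowest. The log2 fold change was 0.99 (SE 0.328, 95% interval 0.29 to 1.70, adjusted p = 0.405). When each rat was left out in turn it ran from 0.50 without rat 9 to 1.17 without rat 8. In the GRCr8 annotation Dot1l overlaps Plekhj1, and strand was not stated for the counting. Plekhj1 had a log2 fold change of -0.33 (SE 0.106), and all 5 stimulated rats were below all sham rats (beside 1.29% of all features without overlap). The part of reads from the overlap in either gene was not tested. In all, 9 of the 49 enzymes overlap another protein-coding gene in this annotation, Ezh2 (with Cul1), Ash1l, Carm1 and Setdb1 among them.

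Arginine methyltransferases numbered 8, with 4 above and 4 below 0. Prmt8 (NM_001271385), a membrane-bound enzyme found mainly in neurons, had 55.7, 56.8, 74.5, 68.0 and 67.0 CPM in sham rats. It had 62.2, 145, 57.9, 133 and 109 CPM in stimulated rats. Rats 7, 9 and 10 lay above all sham rats and rats 6 and 8 among them. Its log2 fold change was 0.65 (SE 0.226, 95% interval 0.17 to 1.14, adjusted p = 0.412).

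The other 7 arginine enzymes had log2 fold changes between -0.12 for Prmt2 and 0.24 for Prmt3, a ribosome-associated enzyme. Prmt1, which makes most asymmetric dimethylarginine in cells, had 0.08 with a 95% interval of -0.16 to 0.33. Prmt5, the main enzyme for symmetric dimethylarginine, had -0.02 with an interval of -0.22 to 0.19. Carm1, a coactivator that methylates H3 arginines, averaged 45.6 ± 2.15 CPM (sham) and 46.3 ± 2.15 CPM (stimulated; SD, n = 5 per group), with an interval of -0.15 to 0.19. A second Carm1 record, NM_001034088, had a log2 fold change of -0.03 (SE 0.084).

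Ezh1, Ezh2 and Eed belong to Polycomb repressive complex 2, which methylates H3K27. Ezh1 is the catalytic subunit of resting cells such as neurons, Ezh2 that of dividing cells, and Eed binds the mark and activates the complex. Ezh1 (NM_001107051) had 136, 146, 136, 137 and 139 CPM in sham rats. In stimulated rats it had 142, 76.2, 145, 107 and 102 CPM. Rats 7, 9 and 10 were below all sham rats, and rats 6 and 8 were within the sham range. The log2 fold change was -0.28 (SE 0.145, 95% interval -0.59 to 0.03, adjusted p = 0.549), and -0.16 without rat 7.

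Ezh2 (NM_001134979) was read between 15 and 116 times per rat, at 2.21, 1.14, 3.16, 3.76 and 2.22 CPM in sham and 3.30, 5.39, 2.04, 3.62 and 5.21 CPM in stimulated rats. Rats 7 and 10 exceeded all sham rats and the other 3 did not. The log2 fold change was 0.63 (SE 0.312, 95% interval -0.04 to 1.30, adjusted p = 0.528). Eed (NM_001106278) was at 17.2 ± 0.519 CPM in sham rats (SD, n = 5) and at 13.5, 18.5, 15.4, 13.6 and 11.2 CPM in stimulated rats. All but rat 7 were below all sham rats, and rat 7 was above them. Its log2 fold change was -0.25 (SE 0.13, adjusted p = 0.547).

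Among the methyltransferases for H3K9, 4 of 5 had a log2 fold change below 0. Prdm2 (NM_001077648), a zinc finger protein with a PR domain, had 78.8, 73.8, 87.5, 82.6 and 76.9 CPM in sham rats. It had 75.5, 59.2, 86.4, 61.2 and 59.3 CPM in stimulated rats. Rats 7, 9 and 10 lay below all sham rats, and rats 6 and 8 within their range. For Prdm2 the log2 fold change was -0.23 (SE 0.114, 95% interval -0.47 to 0.02, adjusted p = 0.534).

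Ehmt2, the catalytic partner in the G9a complex for H3K9 dimethylation, had -0.20 (SE 0.101, adjusted p = 0.534), and Setdb1, which silences transposons, had -0.14 (SE 0.111, adjusted p = 0.686). Setdb1 was below all sham rats in 4 of 5 stimulated rats, in rat 7 by little, and above them in rat 6. The heterochromatin enzymes Suv39h1 and Suv39h2 had log2 fold changes of -0.06 and 0.38, with intervals of -0.44 to 0.33 and -0.09 to 0.86.

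The H3K4 group and its core subunit had 2 members above and 5 below 0. Smyd2 (NM_206851), which methylates histones as well as p53, had 87.0, 95.8, 85.5, 93.5 and 94.9 CPM in sham rats. It had 87.1, 52.5, 84.5, 79.5 and 57.8 CPM in stimulated rats. Rats 7 to 10 were below all sham rats, rat 8 by little, and rat 6 lay among them. Smyd2 had a log2 fold change of -0.34 (SE 0.134, 95% interval -0.63 to -0.05, adjusted p = 0.439). Without rat 10 it was -0.27 and no longer under the unadjusted limit.

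Kmt2e, a SET domain relative that binds H3K4 methylation, differed little at 109 ± 8.01 and 108 ± 10.3 CPM (SD, n = 5 each), with an interval of -0.20 to 0.18. Ash2l, the core subunit of the COMPASS complexes for H3K4, had a log2 fold change of -0.13 with an interval of -0.38 to 0.12. Setd7, for H3K4 monomethylation, had 0.09 with an interval of -0.20 to 0.38. Smyd1 and Prdm9, known from muscle and from meiosis, were counted at low levels, at most 63 and 27 reads in a rat.

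For H3K36, Ash1l, Nsd2 and Nsd3 had log2 fold changes of -0.04, 0.11 and 0.01, with 0 of 3 past the unadjusted limit (beside 9.86% of all features). Ash1l ranged from 139 to 200.5 CPM in stimulated and from 161 to 188 CPM in sham rats, so that all 5 stimulated rats lay outside the sham range, 2 above and 3 below. For H4K20, Kmt5a, which adds the first methyl group, had 0.19, and Kmt5b and Kmt5c, which add further ones, had -0.06 and -0.28. Kmt5c was below all sham rats in 4 stimulated rats, in rat 6 by very little, and above them in rat 10. Of the remaining Setd and Smyd genes, Setd4 had the lowest log2 fold change, -0.35 (SE 0.189, adjusted p = 0.553), and Setd5 the highest, 0.14. The repressor Prdm1 was read at most 23 times in a rat and 0 times in rat 2, a count that allows up to 3 reads. Its log2 fold change, the second highest of the 49, was 1.23 (SE 0.632, 95% interval -0.13 to 2.59, adjusted p = 0.544), and it was under the unadjusted limit with the exact and likelihood ratio tests and without rat 8 or 9.

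For most enzymes the stimulated rats were farther apart than the sham rats. The SD of log2 CPM was larger in stimulated rats for 35 of the 49 enzymes (71.4%), close to the 69.5% of all features, and the median ratio of the SDs was 1.52 over the enzymes and 1.37 over all features. The ratio was 9.36 for Ezh1, 7.85 for Kdm6b, 6.01 for Eed, 4.90 for Setdb1 and 4.86 for Dot1l. For Ezh1 and Eed the sham rats were close together, with an SD of 0.04 in log2 CPM for both, and for Kdm6b the stimulated rats were far apart, with an SD of 1.22.

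**Figure D3:**
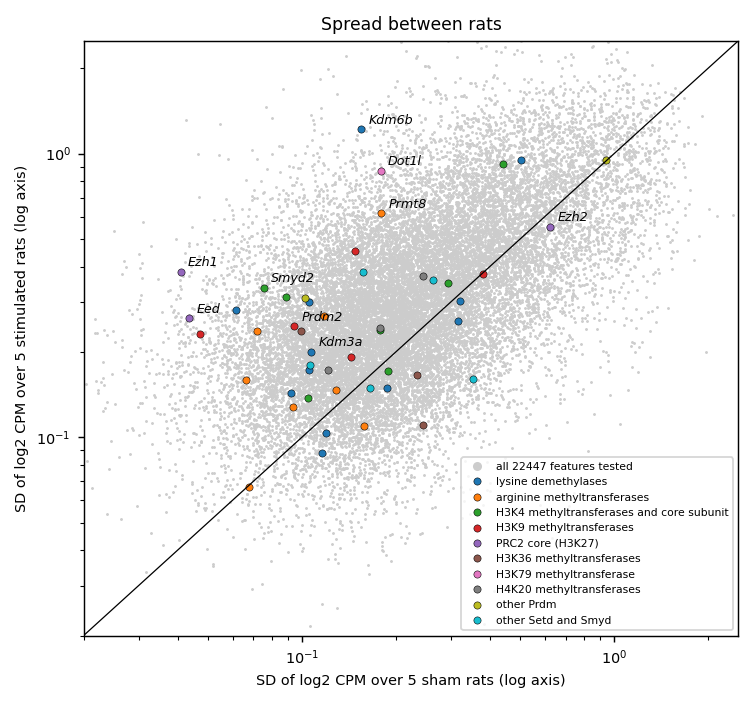
SD of log2 CPM over the 5 stimulated rats (y axis) against that over the 5 sham rats (x axis), both log axes, for all features (grey) and the 49 enzymes (coloured by role), with a line of equality. Of the enzymes, 35 lie above the line, Ezh1 and Kdm6b farthest, and 24 features fall outside the axes.

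The enzymes outside the sham range were counted for each stimulated rat. In rats 7, 9 and 10, 29, 29 and 28 of the 49 enzymes were above or below all sham rats, and in rats 6 and 8 this was so for 17 and 18. Over all features the shares were 55.6%, 49.2% and 49.7% in rats 7, 9 and 10 and 30.2% and 35.3% in rats 6 and 8, so the same 3 rats stood out over all features. By direction, rat 10 had 9 enzymes above (18.4%, beside 25.6% of all features) and 19 below the sham range (38.8%, beside 24.1%). Rat 9 had 14 above (28.6%, beside 25.6%) and 15 below (30.6%, beside 23.7%), and rat 7 had 15 above (30.6%, beside 28.8%) and 14 below (28.6%, beside 26.8%). These differences were not tested.

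**Figure D4:**
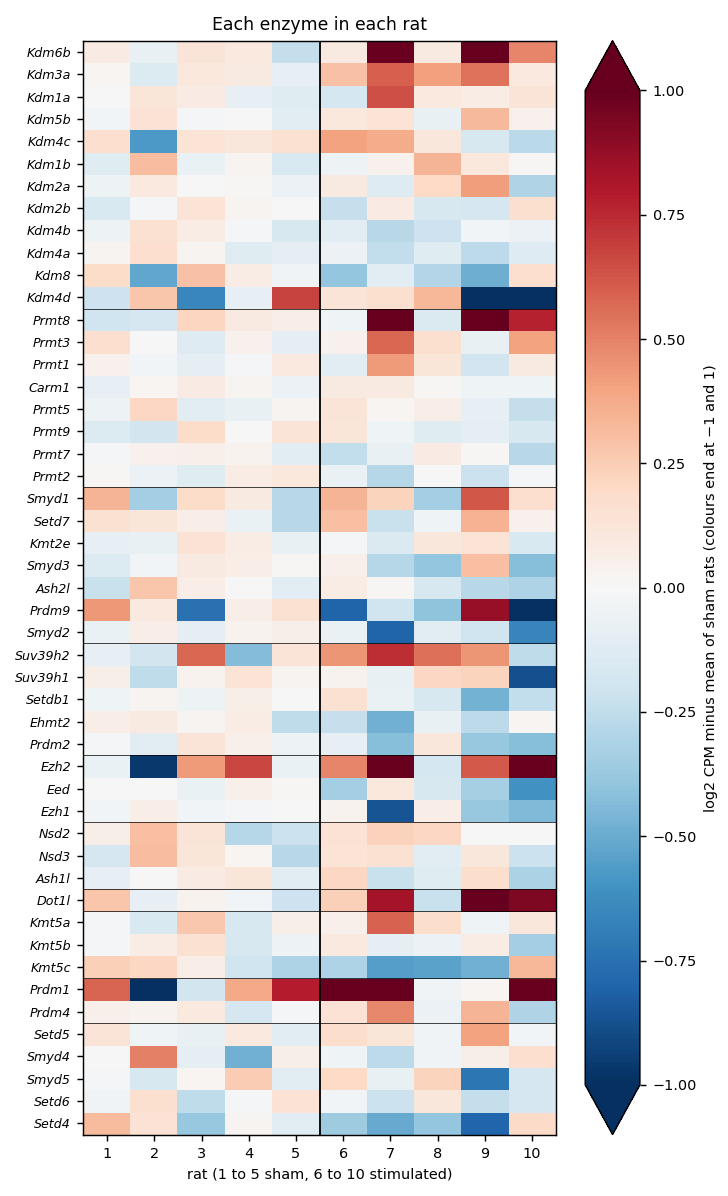
Log2 CPM of each enzyme (rows, grouped by role in the order of the plot of fold changes) in each rat (columns, 1 to 5 sham and 6 to 10 stimulated) minus the mean of the sham rats, with colours ending at -1 and 1. In columns 7, 9 and 10 the median enzyme is 0.227, 0.264 and 0.242 from the sham mean, against 0.132 and 0.123 in columns 6 and 8, with red for Kdm6b, Dot1l and Prmt8 and blue for Ezh1 and Prdm2.

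Other genes were high or low in some of these rats. The immediate early genes, switched on within minutes of neuronal firing, had a mean log2 CPM over 7 of 7 listed genes between 3.14 and 3.74 in sham rats, and of 3.86, 5.42, 3.20, 5.95 and 6.10 in stimulated rats 6 to 10. Rats 7, 9 and 10 were far above sham, rat 6 just above it and rat 8 within it, and of this list Npas4 had a count of 0 in 1 rat. Fos, the best known of these genes, was at 3.26 to 5.32 CPM in sham rats and at 5.61, 106, 5.24, 50.3 and 61.7 CPM in stimulated rats.

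Lists of cell type markers were measured in the same way. The astrocyte list (6 of 6 genes) lay between 8.29 and 8.56 in sham and between 8.42 and 8.80 in stimulated rats, with rats 9 and 10 above all sham rats. Its genes did not go one way: Gfap was at 6469 CPM in rat 7 and 5396 CPM in rat 10, where sham rats had 1327 to 1927 CPM, and Aqp4 and Slc1a3 also lay above all sham rats in both. Aldh1l1 was at 16.4 CPM in rat 7 and 29.3 CPM in rat 10, below the 40.5 to 50.9 CPM of sham rats, and Aldoc and Gja1 lay below all sham rats in rat 7. The endothelial list (6 of 6) lay between 4.25 and 4.40 in sham and between 4.20 and 5.17 in stimulated rats. Rats 6, 8, 9 and 10 were above all sham rats, rat 9 by little (4.44), and rat 7 was below them. In rat 9 only Pecam1 of this list lay above all sham rats (20.5 CPM, sham 10.5 to 16.9 CPM). In rat 7 the endothelial genes went both ways. Pecam1, Flt1 and Cdh5 lay above all sham rats there. Cldn5, Tek and Slco1a4 lay below them, Slco1a4 the farthest (8.22 CPM, where sham rats had 33.7 to 38.8 CPM). The microglial list (6 of 6) lay between 4.63 and 4.99 in sham and between 4.72 and 5.08 in stimulated rats, with rats 7 and 9 above. In rat 7 Itgam, Aif1 and Csf1r lay above all sham rats, and P2ry12 and Tmem119 below them. Granule cell markers of the dentate gyrus (3 of 4) lay between 5.98 and 6.38 in sham rats, and were at 5.56 in rat 7, 5.64 in rat 10 and 6.66 in rat 9. In rat 7 only C1ql2 was below all sham rats (44.8 CPM, sham 140 to 165 CPM). In rat 10 only Calb1 was below them (38.2 CPM, sham 66.8 to 102 CPM). C1ql2 was also below all sham rats in rats 6 and 8 (127 and 128 CPM), and Prox1 in rat 8 (21.3 CPM, sham 22.3 to 35.9 CPM). Prox1 and C1ql2 were above them in rat 9. No gene of these 4 lists was at 0. The CA1 list (4 of 4) lay between 4.84 and 5.43 in sham rats and was lowest in rat 10, at 3.97, and highest in rat 6, at 5.85. Lists for CA3 (3 of 4), oligodendrocytes (6 of 6) and choroid plexus (5 of 5) lay between 7.04 and 7.22, 8.12 and 8.65, and -0.30 and 1.01 in sham rats, and between 6.98 and 7.23, 7.80 and 8.54, and -0.07 and 1.22 in stimulated rats. Unaligned reads were set against the sum of themselves and the counts over all records. Their share was 32.8% to 37.1% in sham rats, 35.6% and 32.0% in rats 6 and 7, and 41.4%, 42.9% and 45.1% in rats 8, 9 and 10. The part of neuronal firing, cell type composition and read quality in the values of the enzymes was not tested.

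Proteins that work with these enzymes or read their marks were taken from a further list of 65 genes, of which 45 were tested. At an unadjusted p-value under 0.05, 3 had higher and 3 had lower values after stimulation (6.67% in each direction, beside 6.7% and 3.16% of all features), and 0 of 45 passed adjustment. Higher were Mllt3, a partner of Dot1l, at a log2 fold change of 0.37 (SE 0.142), and the JmjC proteins Jmjd6 and Jmjd1c, at 0.44 (SE 0.151) and 0.35 (SE 0.154). Lower were the Polycomb repressive complex 2 partners Epop and Phf1, at -0.45 (SE 0.157) and -0.30 (SE 0.119), and the JmjC protein Riox2, at -0.32 (SE 0.133). Riox2 was at 8.63 to 10.8 CPM in sham and 6.18 to 8.49 CPM in stimulated rats. It was the only 1 of the 45 without overlap between groups, beside 1.29% of all features. Jmjd1c, a relative of Kdm3a, stood at 116 CPM in rat 9 and between 57.3 and 76.8 CPM in the other stimulated rats. None of the 9 COMPASS subunits and none of the 11 subunits of Polycomb repressive complex 1 that were tested passed the unadjusted limit.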

How the data were processed

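According to the methods of the study, reads of polyadenylated RNA were aligned by the authors to the RN4 build with BWA and counted per gene with their own script, and the deposited values are raw counts per transcript record without normalization. Strand and the handling of reads shared by several records are not given in the sources used here. Rows carry RefSeq identifiers and were given symbols from the RefSeq table of the GRCr8 assembly (57.8% of tested features matched). The row of unaligned reads was left out of library sizes and tests.

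Features with a summed count below the 30th percentile (46) were removed, and 5 stimulated were compared with 5 sham rats over all 22447 others in edgeR 4.0.16 (R 4.3.3; glmQLFit and glmQLFTest), with TMM factors, no covariate and Benjamini-Hochberg adjustment. All adjusted p-values come from it. SEs were derived from its F statistics, and 95% intervals from the total degrees of freedom. A p-value sets the difference between groups against the spread between these rats, which the test moderates over all features. The test was checked on simulated data with large changes in well counted features and the same spread in both groups. Small changes and an unequal spread, as seen here, were not simulated. Alternatives used DESeq2 1.42.0 and limma 3.58.1, other edgeR tests, factors and filters, and the omission of each rat. The methods count 1 stimulated rat fewer than the labels.

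Given in full were Dot1l, Kdm6b and Prdm2, the complex of Ezh1, Ezh2 and Eed, enzymes with an unadjusted p-value under 0.05 and any without overlap between groups. Others named were chosen after their values were seen. The enzymes and lists were chosen with earlier results of these data known. Promoter sequences are from RefSeq (GRCr8).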

Additional observations from a re-analysis of the deposited data

Results flagged for a closer look

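Kdm6b in stimulated rat 9, at 144 CPM, stood apart from the other stimulated rats, with a gap to the nearest of 0.868 of the range of the group, above Dixon's critical value of 0.71 for 5 samples. The same check over both groups of the 9 genes given in full flagged 1 of 18 groups, where chance gives 0.9, and over all 49 enzymes 4 of 98, where chance gives 4.9.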

How the results depend on the processing

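No paired analysis was possible because the rats carry individual numbers and the groups share none. In all 22 alternatives 0 enzymes had an adjusted p-value under 0.05, while DESeq2, edgeR's exact test and its likelihood ratio test called 33, 89 and 119 features among all. The test with adjusted deviances was chosen after seeing the data. The count of enzymes at an unadjusted p-value under 0.01 was 2 in the test reported. It was 4 with the exact test, the likelihood ratio test, library size alone or no filter, and 1 with limma-voom or robust empirical Bayes. With these settings, in the order named, 3.46%, 3.6%, 2.82%, 2.34%, 1.54% and 1.91% of all features were under this limit. The count of enzymes was 0 to 5 when each rat was left out (0 without rat 2 or 9, 5 without rat 6 or 8, 4 without rat 7 or 10, 1 without rat 1, 3, 4 or 5), beside 1.31% to 4.87% of all features without each rat. The count lower at an unadjusted p-value under 0.05, 1 in the test reported, was 3 with limma-voom and 2 with upper quartile factors (beside 4.17% and 3.98% of all features). It was 1 to 5 when each rat was left out (5 without rat 6, 4 without rat 8, 3 without rat 10, 2 without rat 2, 3, 5 or 7). The share of all features was 5.73% without rat 6, 5.53% without rat 8 and 2.3% to 3.26% without any other rat. Enzymes without overlap between groups numbered 1 with library size alone and 0 to 3 when each rat was left out (3 without rat 6, 2 without rat 10, 1 without rat 3, 5 or 7), beside 1.25% of all features with library size alone and 1.85% to 3.73% without each rat. The count of enzymes higher was 4 to 6 when each rat was left out, beside 5.18% to 8.31% of all features. Partner proteins at the unadjusted limit, 6 in the test reported, numbered 3 to 9 (3 without rat 1 or 7, 4 without rat 9, 9 without rat 8). Without each rat, 5.18% to 8.31% of all features were higher and 2.3% to 5.73% lower at this limit. The median log2 fold change of the enzymes ran from -0.055 without rat 8 to 0.025 without rat 10. Kdm6b was not under the unadjusted limit with limma-voom, nor Smyd2 without rat 10. The causes were not tested. Prdm1, Kdm4d, Prdm9 and Ezh2 are limited by their few reads.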
